A study of Homo sapiens with 18 samples.

Results

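Tetraploid clone 4N-3 was compared with tetraploid clone 4N-1 of RPE1, a human line of retinal pigment epithelial cells immortalised with telomerase, by sequencing of polyadenylated RNA. The comparison rests on 6 of the 18 libraries of the series, libraries A, B and C of either clone, taken by their labels. Both clones had been found tetraploid by flow cytometry, and both had the same history per the labels: 72 hours of ZM447439 at 2.5 uM, a drug that blocks Aurora kinases and so prevents cell division, several weeks of outgrowth in medium with serum, and isolation from a single cell. No gene had been edited. Diploid clones 2N-3 and 2N-1, isolated from the same plates as 4N-3 and 4N-1, had been through the same drug, as had tetraploid 4N-2 and diploid 2N-2, which had also been labelled with a Hoechst dye before sub-cloning. Each clone descends from 1 cell, so a difference between 4N-3 and 4N-1 cannot be told apart from a difference between any pair of clones of the line. The labels do not say whether A, B and C were separate cultures. The p-values and SEs measure the spread between libraries of the same clone, estimated over all 18 libraries and not over the 6 compared alone.

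Cells that copy their DNA and fail to divide become tetraploid, and their further growth is known to be restrained by p53 and by the Hippo kinases, which keep the coactivators YAP and TAZ out of the nucleus. Genes for chromosome segregation and genes for DNA replication are transcribed in successive waves of the cell cycle, those of segregation largely through FOXM1, B-MYB and the MuvB complex and those of replication through E2F factors. Immediate early genes such as FOS and EGR1 are switched on within minutes of stimulation by serum, growth factors or stretch, and their transcripts decay as fast.

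Levels are given as RPKM, the deposited unit, in which reads are divided by the reads of the library and by the length of the gene, or, for comparisons within a gene, as recovered reads per M reads (M, mega). The 6 libraries held 38.7 to 48.5 M reads in genes, within the 37.2 to 54.4 M of all 18. Fold changes are differences of log2(RPKM + 0.5) between clones, 4N-3 over 4N-1, and understate the change of genes of low level. A gene passed at an adjusted p below 0.05 with limma and is said to have risen or fallen in 4N-3 only then. It was called where the change was also 2-fold or more.

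Library C of 4N-3 stood apart from A and B. Over the 9704 genes tested, the root mean square log2 difference between A and B was 0.178, and that of C was 0.308 to A and 0.316 to B. Against the libraries of 4N-1, A and B lay at a median of 0.420 and C at 0.284, so C was nearer to 4N-1 than to its own clone, while the 3 libraries of 4N-1 lay 0.181 to 0.219 apart. C was not near to 4N-1 alone, with medians of 0.254 to 2N-2, 0.280 to 2N-3 and 0.289 to 2N-1. Those of A and B were 0.314, 0.295 and 0.303. RIN3, which had 801 reads in 4N-1, had 0 reads in C as in A and B. Changes are given with C, followed by the value without it for the genes described in full. Of 120 genes named on RPKM by a fixed rule, 109 kept their direction and side of the threshold without C, 8 passed only without it, 1 passed only with it, and 2 that passed in neither case changed sign.

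The pair had been described as the tetraploid clones that resemble each other. The median distance of their libraries, 0.417, was below that of 4N-2 to 4N-1, 0.599, and of 4N-2 to 4N-3, 0.485. It was above the median distance of 4N-3 to each diploid clone, which was 0.302 to 2N-1, 0.271 to 2N-2 and 0.294 to 2N-3. The resemblance therefore held relative to 4N-2 and not relative to the diploid clones. Of 18 markers of retinal pigment epithelium, OTX2, PAX6 and MITF, transcription factors of that lineage, were present in all 6 libraries, while 10 markers were below 1 read per M in each, among them RPE65 and TYRP1, which serve vision and pigment, and TTR was at 0. The summed level of these markers was 131 to 190 reads per M in 4N-3 and 171 to 179 in 4N-1. PAX6, the highest of them, had 65.5, 67.9 and 108 reads per M in A, B and C of 4N-3, against 97.1, 96.7 and 92.7 in 4N-1. OTX2 had 28.9, 28.0 and 39.9 in 4N-3, against 35.1, 35.1 and 35.1 in 4N-1. In both genes A and B lay below 4N-1 and C above it. Of 27 markers of other cell types, 21 were below 1 read per M in all 6 libraries and 6 of these were at 0, with sums of 493 to 522 in 4N-3 and 404 to 416 in 4N-1. Of the 3 of these markers tested on RPKM 2 rose and 1 fell. THY1, a surface protein of fibroblasts and neurons and most of the sum, had 400.4, 383 and 346 reads per M in 4N-3, against 234, 224 and 232 reads per M in 4N-1. CD68, a lysosomal protein of macrophages, had 45.5, 46.3 and 47.6 reads per M in 4N-3, against 28.2, 26.8 and 27.3 reads per M in 4N-1. PDGFRB, a receptor of mesenchymal cells and the second in level, had 61.4, 53.9 and 117 reads per M in 4N-3, against 141, 139.8 and 135 reads per M in 4N-1, so that C was near 4N-1. The part of these genes in the results was not tested.

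**Figure D1:**
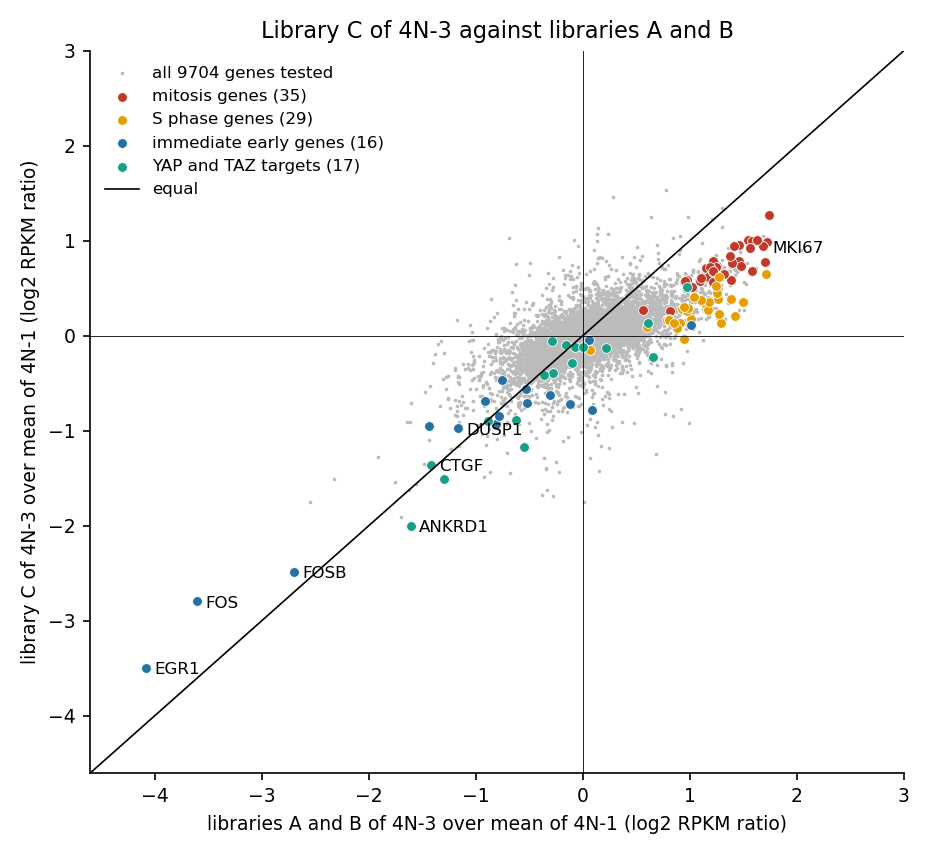
Each point is 1 of the 9704 genes tested; the x axis is the log2 ratio of the mean of libraries A and B of 4N-3 to the mean of 4N-1, and the y axis the same ratio for library C alone, both on log2(RPKM + 0.5). The 35 mitosis genes and 29 S phase genes lie right of the line of equality, so that C was nearer to 4N-1, while FOSB, CTGF, DUSP1 and ANKRD1 lie near the line or beyond it.

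With all 3 libraries of 4N-3, 98 genes were called higher (1.01% of those tested) and 37 lower (0.381%). Passing at any fold were 1044 genes that rose (10.8%) and 743 that fell (7.66%). These 2 counts depend on library A of 2N-3, which lies outside the comparison but enters the shared spread. With it left out 2320 rose and 1673 fell, while 102 were called higher and 40 lower. Of the 120 genes named on RPKM, 12 passed only then. Without library C, 192 were called higher (1.98%) and 70 lower (0.721%), and 1697 rose (17.5%) and 1099 fell (11.3%). The counts of list members given below are to be read beside these shares. Of the calls made with C, 97 of 98 and 36 of 37 were also made without it, where they were 97 of 192 and 36 of 70. Leaving out A or B in its place gave 57 and 51 calls higher and 30 and 25 lower. The libraries of the clones did not overlap in any of the 98 genes called higher and overlapped in 1 of the 37 called lower. The call rule itself selects for such genes, and the share over all genes tested is not given, so this count is no separate support. On recovered reads, which let in genes with long introns that miss the RPKM minimum, 503 of 23532 genes were called higher (2.14%) and 347 lower (1.47%), with 1920 risen (8.16%) and 1771 fallen (7.53%). Without C these calls numbered 756 (3.21%) and 592 (2.52%), and without B 327 and 209. For size, 4N-2 differed by 761 called genes from 4N-1 (7.84%) and by 374 from 4N-3 (3.85%), comparisons that share libraries with this one.

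The position of C was not the same for every gene. Taking the mean of 4N-1 as 0 and the mean of A and B as 1, on the log2 scale, C had a median position of 0.473 over the 192 genes called higher without it and of 0.552 over the 70 called lower. Among the 192 genes, 16 had C below 0.2 and 2 had it at 0.8 or above. Among the 70, those numbers were 10 and 12. On reads, of the 756 genes called higher without C, 107 had C below 0.2 and 119 at 0.8 or above, and of the 592 called lower 147 and 110, with median positions of 0.469 and 0.453, so the order of the medians was the other way round. The difference between the directions was not tested.

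The means of 4N-1 and 4N-3 were also set against those of the other clones. Of the 98 genes higher in 4N-3, the mean of 4N-1 alone lay outside the range of the means of 4N-2 and the 3 diploid clones in 85, both clones did in 11, and neither did in 2. Of the 37 lower in 4N-3, 4N-1 alone lay outside in 24, both in 10, 4N-3 alone in 1 and neither in 2. Without C, 4N-1 alone lay outside in 107 of the 192 genes higher in 4N-3 and both in 80, and in 41 and 20 of the 70 lower. On reads with C, 4N-1 alone lay outside in 325 of the 503 higher and in 153 of the 347 lower, and 4N-3 alone in 32 and 50. The call rule itself favours genes in which either clone lies outside. The share over all genes tested is not given, so these counts have no baseline. MKI67, a protein that coats mitotic chromosomes and marks cycling cells, averaged 19.2 RPKM in 4N-3, 21.6 in 4N-2, 14.5 in 2N-3, 14.9 in 2N-2 and 17.3 in 2N-1, against 6.56 in 4N-1.

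Genes of mitosis were higher in 4N-3 throughout. Of 38 listed genes 35 were tested on RPKM, and all 35 rose, 26 of them by 2-fold or more, with a median log2 change of 1.12, against 0.03 over all genes tested. On reads all 38 rose and 36 were called. Library C lay below A and B in all 35, and without it the median was 1.38 and 31 were called. In a bulk sample, fewer cells in mitosis and less of these transcripts per cell cannot be told apart.

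The promoters of 4 of these genes are shown because they hold a short element that the choice of genes did not use, the cell cycle homology region (CHR), searched as TTTGAA or TTCGAA on both strands. It was present in 21 of 31 mitosis promoters found in RefSeq (67.7%) and in 16.6% of 27305 promoters, each of 300 bases, 250 before and 50 after the start. The 250 bases before the start are printed from the strand of the gene (RefSeq, GRCh38.p14), with matches on either strand in capitals. A match describes the letters only.
CDC20 promoter, chr1:43358731-43358980, plus strand: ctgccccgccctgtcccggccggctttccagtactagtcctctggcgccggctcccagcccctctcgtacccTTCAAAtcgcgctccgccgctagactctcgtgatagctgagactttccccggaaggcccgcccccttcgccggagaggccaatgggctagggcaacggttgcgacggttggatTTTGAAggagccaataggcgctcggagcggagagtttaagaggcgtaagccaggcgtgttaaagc
PLK1 promoter, chr16:23678639-23678888, plus strand: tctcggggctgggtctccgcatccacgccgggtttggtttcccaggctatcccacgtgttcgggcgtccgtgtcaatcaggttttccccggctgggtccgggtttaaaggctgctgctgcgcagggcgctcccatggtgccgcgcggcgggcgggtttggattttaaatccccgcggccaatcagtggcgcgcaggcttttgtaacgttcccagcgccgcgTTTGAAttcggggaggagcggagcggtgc
TOP2A promoter, chr17:40417897-40418146, minus strand: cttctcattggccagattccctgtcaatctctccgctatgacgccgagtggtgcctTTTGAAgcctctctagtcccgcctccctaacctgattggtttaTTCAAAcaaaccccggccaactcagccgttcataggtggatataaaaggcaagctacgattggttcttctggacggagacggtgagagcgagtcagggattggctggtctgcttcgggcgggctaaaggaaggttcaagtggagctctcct
PRC1 promoter, chr15:90994536-90994785, minus strand: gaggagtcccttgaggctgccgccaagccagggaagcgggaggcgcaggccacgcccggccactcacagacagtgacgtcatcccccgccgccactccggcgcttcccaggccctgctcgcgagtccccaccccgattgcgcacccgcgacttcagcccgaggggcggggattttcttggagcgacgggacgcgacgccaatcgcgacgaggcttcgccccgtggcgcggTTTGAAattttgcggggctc
The match lay 29 bases before the start in PLK1 and 20 bases before it in PRC1. CDC20 held 2 matches, at 178 and 65 bases before the start, and TOP2A 2, at 194 and 151.

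KIF20A, a kinesin of the late spindle, had the largest rise of the list. It had 18.0, 18.6 and 13.1 RPKM in libraries A, B and C of 4N-3, against 5.11, 5.09 and 5.23 RPKM in those of 4N-1. No library of 4N-3 came near those of 4N-1, and C was the lowest of its clone. The log2 fold change was 1.58 (SE 0.13, adjusted p = 6.66e-06) and 1.74 without C. CDC20, which activates the anaphase-promoting complex, had 32.5, 33.9 and 19.8 RPKM in 4N-3, against 9.76, 9.57 and 9.91 RPKM in 4N-1, a log2 change of 1.47 (SE 0.18, adjusted p = 1.16e-04) and 1.72 without C. For MKI67 the values were 21.9, 22.8 and 13.0 RPKM in 4N-3, against 6.47, 6.55 and 6.66 RPKM in 4N-1, with a log2 change of 1.44 (SE 0.26, adjusted p = 0.00197) and 1.70 without C. These genes share a pattern of close values in A and B, a lower one in C, and low and even values in 4N-1.

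The kinase PLK1, which drives mitotic entry and spindle assembly, had 10.6, 10.7 and 6.17 RPKM in 4N-3, against 2.96, 2.97 and 2.99 RPKM in 4N-1, a log2 change of 1.43 (SE 0.16, adjusted p = 5.59e-05) and 1.68 without C. TOP2A, the topoisomerase that untangles sister chromatids, had 15.0, 15.3 and 9.72 RPKM in 4N-3, against 4.35, 4.39 and 5.00 RPKM in 4N-1, a log2 change of 1.42 (SE 0.19, adjusted p = 2.23e-04) and 1.63 without C. FOXM1, a transcription factor of the late cell cycle, had 16.1, 16.2 and 10.2 RPKM in 4N-3, against 4.92, 4.85 and 4.93 RPKM in 4N-1, and its change was 1.41 (SE 0.14, adjusted p = 3.20e-05) and 1.62 without C. In all 3 the lowest library of 4N-3 was still higher than the highest of 4N-1. UBE2C, the ubiquitin-conjugating enzyme of the anaphase-promoting complex, had a log2 change of 1.39 (adjusted p = 9.06e-04), BIRC5 (survivin, of the chromosomal passenger complex) at 1.39 (adjusted p = 1.05e-04), and CCNB1 (cyclin B, the partner of CDK1) at 1.37 (adjusted p = 3.52e-05). Outside the list, CDCA3, a trigger of mitotic entry, and TROAP, a spindle protein, were among the 12 largest rises, at a log2 change of 1.47 (adjusted p = 5.03e-05) and 1.42 (adjusted p = 3.52e-05). The smallest rises of the list were those of CENPA, the histone H3 of the centromere, at a log2 change of 0.46 (adjusted p = 0.00145) and BUB3, a checkpoint protein, at 0.63 (adjusted p = 0.00629).

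Genes of DNA replication rose less. Of 39 listed, 29 were tested on RPKM, of which 27 rose (93.1%, against 10.8% of all genes tested) and 6 were called, with a median of 0.83. Without C, 28 rose and 16 were called, with a median of 1.04, and C was below A and B in all 29. On reads 36 of 39 rose and 24 were called. RRM2, the small subunit of ribonucleotide reductase, which makes deoxynucleotides, had 24.1, 24.5 and 11.4 RPKM in libraries A, B and C of 4N-3, against 6.66, 6.996 and 7.59 RPKM in those of 4N-1. A and B were far above 4N-1 and C was between. The log2 fold change was 1.36 (SE 0.26, adjusted p = 0.00248) and 1.71 without C.

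FEN1, the nuclease that trims Okazaki fragments, had a log2 change of 1.12 (adjusted p = 0.0105), TK1, thymidine kinase, at 1.05 (adjusted p = 0.00189), and MCM4, of the replicative helicase, at 1.05 (adjusted p = 0.00580). MCM7 of the same helicase had 23.9, 24.1 and 13.5 RPKM in 4N-3, against 9.69, 9.74 and 9.75 RPKM in 4N-1. It rose by a log2 change of 0.99 (SE 0.19, adjusted p = 0.00287) and 1.26 without C, just under 2-fold with C and past it without. The transcription factor E2F1 had 3.25, 3.38 and 1.34 RPKM in 4N-3, against 1.14, 1.11 and 0.975 RPKM in 4N-1. In C it was close to the level of 4N-1. CCNE2, cyclin E2, did not pass, at a log2 change of 0.62 (adjusted p = 0.0813), but it rose without C, at 0.95 (adjusted p = 0.00195), with C on the level of 4N-1. The MCM7 promoter is shown because it holds 2 E2F elements (TTTGGCGC, TTTCCCGC, TTTCGCGC or TTTGCCGC, both strands), which occurred in 17 of 34 S phase promoters (50%) and in 3.33% of all. They are in capitals, at 187 and 9 bases before the start.
MCM7 promoter, chr7:100101398-100101647, minus strand: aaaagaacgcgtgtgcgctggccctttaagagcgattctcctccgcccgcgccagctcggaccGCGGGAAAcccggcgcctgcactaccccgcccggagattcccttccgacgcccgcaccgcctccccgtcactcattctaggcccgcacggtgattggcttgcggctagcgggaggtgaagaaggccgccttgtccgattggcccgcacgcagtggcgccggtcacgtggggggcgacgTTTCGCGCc

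The regulators of G1 phase moved in both directions, and 11 of 18 could be tested on RPKM: 4 rose and 2 fell. CDKN2B (p15, an inhibitor of CDK4 and CDK6) fell, with a log2 change of -0.94 (adjusted p = 0.00172), and CDK2, the kinase of S phase entry, rose by a log2 change of 0.79 (adjusted p = 0.00978). CDKN2C (p18, of the same inhibitor family) rose by a log2 change of 0.74 (adjusted p = 2.05e-04) and CDK4, a partner of the D cyclins, by 0.46 (adjusted p = 0.0439). The D cyclins are given in reads per M. CCND2 had 10.5, 9.79 and 12.4 reads per M in 4N-3, against 17.9, 19.4 and 19.2 reads per M in 4N-1. Its libraries did not overlap, and it fell, with a log2 change of -0.79 (SE 0.12, adjusted p = 3.38e-04) and -0.89 without C. CCND1 had 761, 753 and 491 reads per M in 4N-3, against 727, 726 and 774 reads per M in 4N-1, with A and B on the level of 4N-1 and C below it. It did not pass, at a log2 change of -0.18 (adjusted p = 0.425), nor did CCND3, at 0.37 (adjusted p = 0.0941). Without C, CCND1 was at 0.03 and did not pass, and CCND3 rose, at a log2 change of 0.54 (adjusted p = 0.00789).

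**Figure D2:**
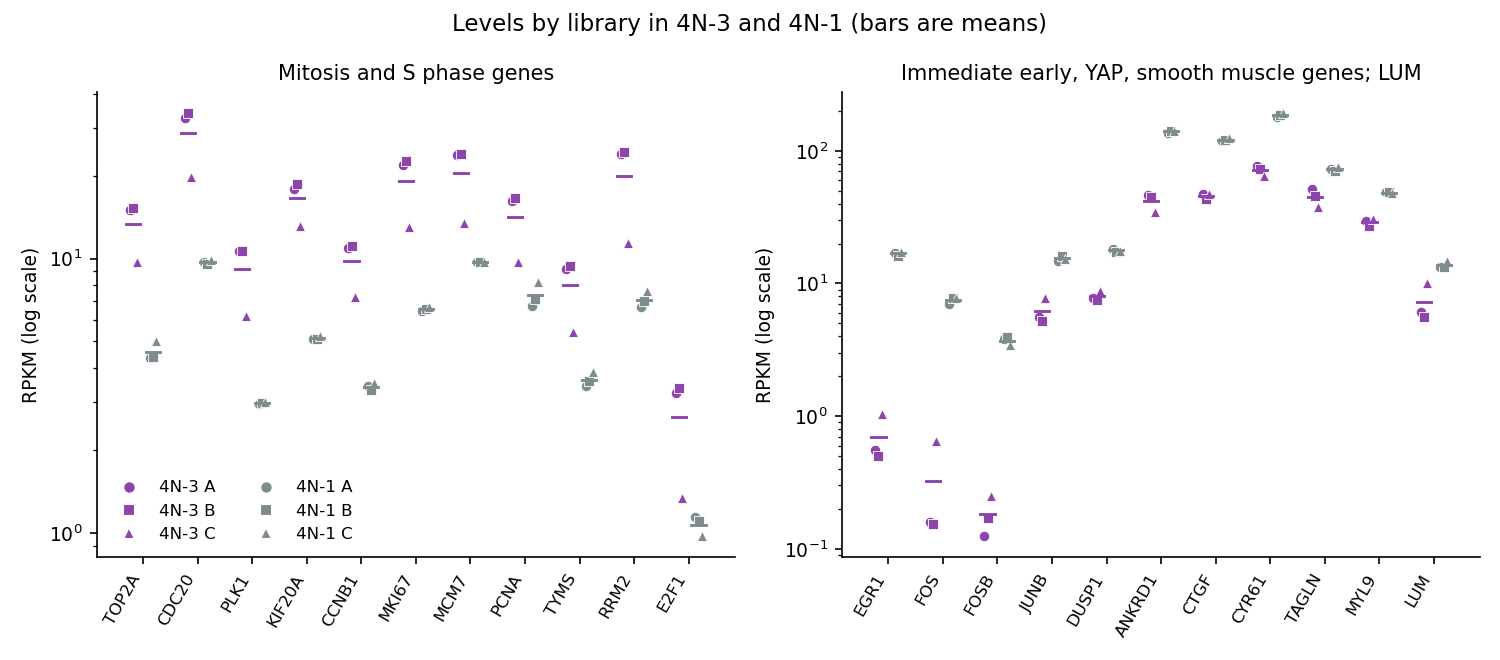
RPKM on a log scale in each library of 4N-3 (purple) and 4N-1 (grey), with a bar at the mean; circles, squares and triangles are libraries A, B and C. In the left panel the triangle of 4N-3 is the lowest point of its clone in every gene, and in the right panel the points of 4N-3 lie below those of 4N-1, by the widest gap in EGR1, FOS and FOSB.

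Immediate early genes were lower in 4N-3, and the 3 largest falls on RPKM were among them. Of 23 listed, 16 were tested on RPKM: 12 fell (75%, against 7.66% of all genes tested), 5 of them called, and 1 rose (6.25%, against 10.8%), with a median of -0.73. Without C 11 fell and 1 rose. On reads 15 of 23 fell and 1 rose. EGR1, a zinc finger transcription factor induced by serum, had 0.559, 0.498 and 1.04 RPKM in libraries A, B and C of 4N-3, against 17.1, 16.2 and 17.2 RPKM in those of 4N-1. All 3 libraries of 4N-3 were far below 4N-1, and C was the highest of them. The log2 fold change was -3.88 (SE 0.24, adjusted p = 3.71e-07) and -4.08 without C. FOS, a subunit of the AP-1 factor, had 0.160, 0.153 and 0.652 RPKM in 4N-3, against 7.03, 7.72 and 7.77 RPKM in 4N-1, a log2 change of -3.34 (SE 0.32, adjusted p = 2.43e-05) and -3.61 without C. Its relative FOSB had 0.125, 0.169 and 0.252 RPKM in 4N-3, against 3.79, 3.93 and 3.41 RPKM in 4N-1, a log2 change of -2.63 (SE 0.13, adjusted p = 3.15e-08) and -2.70 without C. In reads, EGR1 had 333 reads in 4N-3 against 8667 in 4N-1, FOS 140 reads in 4N-3 against 3502 in 4N-1, and FOSB 164 reads in 4N-3 against 3593 in 4N-1.

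Other members changed less. JUNB, another AP-1 subunit, had 5.63, 5.18 and 7.76 RPKM in 4N-3, against 14.8, 16.2 and 15.4 RPKM in 4N-1, a log2 change of -1.27 (SE 0.21, adjusted p = 0.00107) and -1.44 without C. DUSP1, a phosphatase that switches off MAP kinases, had 7.76, 7.49 and 8.77 RPKM in 4N-3, against 18.2, 17.3 and 17.7 RPKM in 4N-1, a log2 change of -1.10 (SE 0.09, adjusted p = 8.63e-06) and -1.17 without C. In both genes C was nearer to A and B than to 4N-1. IER2, IER3, ZFP36, JUND, KLF2, SRF and KLF6 fell by less than 2-fold, between -0.85 and -0.41. FOSL1, the AP-1 subunit that is usually induced late, was the only member of those tested that rose, at a log2 change of 0.71 (adjusted p = 0.0308), with 33.3, 34.5 and 17.9 RPKM in 4N-3, against 16.9, 16.7 and 15.9 RPKM in 4N-1. Its level in C was close to that of 4N-1. JUN, MYC and FOSL2 did not pass, at a log2 change of -0.20 (adjusted p = 0.455), -0.32 (adjusted p = 0.134) and 0.02 (adjusted p = 0.900). In the other clones EGR1 averaged 0.717 RPKM in 4N-2, 14.3 in 2N-3, 12.4 in 2N-2 and 8.55 in 2N-1, and FOS averaged 0.316, 5.41, 4.89 and 4.28 in the same order. Both tetraploid clones 4N-3 and 4N-2 thus had little of either, and 4N-1 had the highest mean of the 6 clones.

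The EGR1 promoter is shown for its CArG boxes, the site of serum response factor, which the choice of genes did not use. The box was found in 2 of 18 promoters of the list (11.1%), EGR1 and SRF, and in 1.29% of all promoters. The 2 boxes printed, in capitals, lie 105 and 83 bases before the start.
EGR1 promoter, chr5:138465229-138465478, plus strand: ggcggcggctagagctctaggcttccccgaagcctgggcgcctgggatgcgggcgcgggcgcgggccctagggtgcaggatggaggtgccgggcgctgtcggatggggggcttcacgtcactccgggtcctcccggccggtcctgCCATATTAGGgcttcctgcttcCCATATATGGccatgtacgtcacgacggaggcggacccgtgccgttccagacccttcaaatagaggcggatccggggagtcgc

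Some targets of YAP and TAZ were lower in 4N-3 and a few were higher. Of 23 listed, 17 were tested: 7 fell (41.2%, against 7.66% of all genes tested), 3 of them called, and 2 rose (11.8%, against 10.8%), with a median of -0.21, against 0.03. Without C 8 fell and 3 rose. The 3 called genes are those most used as readouts of the pathway. CTGF, a matricellular protein, had 47.1, 43.4 and 47.1 RPKM in libraries A, B and C of 4N-3, against 119, 120.2 and 125 RPKM in those of 4N-1. All 3 libraries of 4N-3, C included, were far below 4N-1. The log2 fold change was -1.40 (SE 0.10, adjusted p = 1.78e-06) and -1.42 without C. CYR61, of the same protein family, had 77.3, 73.5 and 65.1 RPKM in 4N-3, against 180.4, 186 and 192 RPKM in 4N-1, a log2 change of -1.37 (SE 0.11, adjusted p = 5.69e-06) and -1.30 without C. ANKRD1, a nuclear ankyrin repeat protein of stretched muscle, had 46.2, 45.1 and 34.6 RPKM in 4N-3, against 136, 141 and 142 RPKM in 4N-1, a log2 change of -1.74 (SE 0.13, adjusted p = 1.78e-06) and -1.60 without C. In CYR61 and ANKRD1 library C was farther from 4N-1 than A and B were. In the other clones CTGF averaged 58.3 RPKM in 4N-2, 82.2 in 2N-3, 50.3 in 2N-2 and 49.3 in 2N-1. CYR61 averaged 59.8, 137, 79.1 and 77.2 in the same order, and ANKRD1 39.2, 52.9, 36.0 and 40.9. In all 3 genes 4N-1 had the highest mean of the 6 clones. Of the others, TGFB2, a ligand of TGF-beta receptors, fell, with a log2 change of -0.89 (adjusted p = 2.56e-05), F3, tissue factor, at -0.75 (adjusted p = 0.00314), and GADD45B, a stress gene, at -0.71 (adjusted p = 0.00245). IGFBP3, which binds insulin-like growth factors, rose by a log2 change of 0.82 (adjusted p = 2.44e-04), as did AXL, a receptor tyrosine kinase, by 0.45 (adjusted p = 0.0104). AMOTL2, NT5E, MYOF and PTPN14 did not pass.

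The CTGF and ANKRD1 promoters are shown because they held more than 1 match to the TEAD motif GGAATG, searched on both strands, the site of the factors that carry YAP to DNA. It was found in 7 of 18 promoters of the list (38.9%) and in 14.0% of all. CTGF had matches 169, 104 and 95 bases before the start, and ANKRD1 at 220 and 128, all in capitals.
CTGF promoter, chr6:131951373-131951622, minus strand: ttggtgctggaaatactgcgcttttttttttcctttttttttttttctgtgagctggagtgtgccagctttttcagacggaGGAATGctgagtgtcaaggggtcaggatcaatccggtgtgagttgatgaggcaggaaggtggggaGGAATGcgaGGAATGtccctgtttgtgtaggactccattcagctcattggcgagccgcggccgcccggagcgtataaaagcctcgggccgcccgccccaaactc
ANKRD1 promoter, chr10:90921088-90921337, minus strand: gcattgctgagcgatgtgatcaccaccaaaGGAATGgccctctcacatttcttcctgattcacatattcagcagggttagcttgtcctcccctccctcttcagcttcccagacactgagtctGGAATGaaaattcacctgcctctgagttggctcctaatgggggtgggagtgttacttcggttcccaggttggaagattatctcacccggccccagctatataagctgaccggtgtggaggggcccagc

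Genes of the contractile apparatus of smooth muscle, many of them targets of serum response factor, were lower in 4N-3: 9 of 13 tested fell and 1 rose, none by 2-fold, with a median of -0.51. The counts were the same without C. TPM1, a tropomyosin, had a log2 change of -0.78 (adjusted p = 2.50e-05), MYL9, a myosin light chain, of -0.72 (adjusted p = 0.00569), ACTA2, smooth muscle actin, of -0.65 (adjusted p = 4.52e-04). TAGLN (transgelin), which binds actin, had 51.1, 45.3 and 38.0 RPKM in 4N-3, against 72.4, 70.9 and 75.6 RPKM in 4N-1, a log2 change of -0.71 (SE 0.17, adjusted p = 0.0125) and -0.59 without C. C was the lowest library of 4N-3 in TAGLN. Among 24 genes of actin and focal adhesions 7 fell and 2 rose. Zyxin (ZYX), which gathers at stretched adhesions, fell, with a log2 change of -0.65 (adjusted p = 2.14e-04), PDLIM5 at -0.48 (adjusted p = 0.00224) and CDC42EP3 at -0.42 (adjusted p = 0.00102), while filamin C (FLNC) rose by a log2 change of 0.43 (adjusted p = 0.0362). Without C, 4 of the 24 fell and 3 rose.

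Fibrillar matrix genes were lower in 4N-3 or did not pass on RPKM, and 1 rose on reads. Of 17 fibrillar matrix genes tested 7 fell and 0 rose in limma, 9 and 0 at an unadjusted p below 0.05, with a median of -0.36, and without C 6 fell. COL1A1, the main chain of type I collagen, had 3.87, 3.22 and 5.20 RPKM in libraries A, B and C of 4N-3, against 8.62, 8.68 and 7.69 RPKM in those of 4N-1. C lay between A and B on one side and 4N-1 on the other. The log2 fold change was -0.96 (SE 0.17, adjusted p = 0.00196) and -1.13 without C, so that on RPKM it was called without C alone. Thrombospondin (THBS1) fell, with a log2 change of -0.67 (adjusted p = 0.0220) and fibrillin (FBN1) at -0.58 (adjusted p = 0.0349), while fibronectin (FN1) did not pass, at -0.45 (adjusted p = 0.169). On reads 6 of 24 fell and 1 rose, namely COL1A2, the other chain of type I collagen, which had 0.475, 0.505 and 0.446 reads per M in 4N-3, against 0.190, 0.231 and 0.290 reads per M in 4N-1, a log2 change of 0.99 (SE 0.25, adjusted p = 0.0109) and 1.04 without C. Without C 6 fell and 2 rose there, and COL1A2 was called. Outside the list, COL11A1, a chain of the fibrils of cartilage and vitreous, had 6.65, 6.24 and 10.3 reads per M in 4N-3, against 51.5, 50.9 and 55.0 reads per M in 4N-1. It fell, with a log2 change of -2.80 (SE 0.22, adjusted p = 4.15e-07) and -3.02 without C.

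Of the small leucine-rich proteoglycans, which space collagen fibrils, 7 of 12 were tested on reads: 3 fell, 2 of them called, and without C 5 fell and all 5 were called. Fibromodulin (FMOD) had 0.238, 0.436 and 0.564 reads per M in 4N-3, against 2.70, 2.58 and 3.05 reads per M in 4N-1, a log2 change of -2.78 (SE 0.24, adjusted p = 1.16e-06) and -3.03 without C. Epiphycan (EPYC) had 0.132, 0.390 and 1.53 reads per M in 4N-3, against 2.59, 3.00 and 3.52 reads per M in 4N-1, a log2 change of -2.72 (SE 0.48, adjusted p = 0.00100) and -3.61 without C. Library C held several times the EPYC of A and B. Lumican (LUM) had 6.14, 5.60 and 10.0 RPKM in 4N-3, against 13.3, 13.3 and 14.7 RPKM in 4N-1. On RPKM it fell, with a log2 change of -0.92 (SE 0.14, adjusted p = 7.04e-04) and -1.16 without C, and it was called without C alone. Of 12 proteases and inhibitors tested on RPKM 5 fell and 1 rose, or 5 and 3 without C, among them PLAU, urokinase, at a log2 change of -0.72 (adjusted p = 7.51e-05), and MMP2, a gelatinase, at -0.55 (adjusted p = 0.00113). Of 11 integrins 5 fell (45.5%, against 7.66% of all genes tested) and 2 rose (18.2%, against 10.8%), with the same counts without C. The shares of the proteases and inhibitors were 41.7% and 8.33%. ITGA10, a subunit of a collagen receptor, had 0.412, 0.409 and 0.981 RPKM in 4N-3, against 2.32, 2.38 and 2.15 RPKM in 4N-1, a log2 change of -1.38 (SE 0.17, adjusted p = 1.05e-04) and -1.61 without C, the only integrin called on RPKM with C. On reads 2 of 18 were called lower, ITGA10 and ITGB8, and 4 were without C. ITGB8, which releases latent TGF-beta, had a log2 change of -0.95 (adjusted p = 1.72e-04), and ITGA11, of another collagen receptor, of -0.68 (adjusted p = 0.00375). ITGA6, of laminin receptors, rose by a log2 change of 0.44 (adjusted p = 0.00876).

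Signalling genes of the TGF-beta pathway were split, with 6 of 14 tested fallen (42.9%, against 7.66% of all genes tested) and 2 risen (14.3%, against 10.8%). The ligand BMP4 fell, with a log2 change of -0.80 (adjusted p = 2.65e-04), the repressor SKIL at -0.56 (adjusted p = 0.00134) and the antagonist GREM1 at -0.55 (adjusted p = 0.00224), whereas SMAD3, the signal transducer, rose by a log2 change of 0.57 (adjusted p = 5.40e-04) and ID2, an inhibitor of helix-loop-helix factors, by 0.55 (adjusted p = 0.00122). In the list of epithelial-mesenchymal regulators, SNAI2 and SNAI1, both repressors of E-cadherin, fell, with a log2 change of -0.84 (adjusted p = 8.36e-05) and -0.54 (adjusted p = 0.00403), and vimentin (VIM) rose by a log2 change of 0.40 (adjusted p = 0.0402). Of the keratins, 4 of 7 tested fell and 1 rose, with log2 changes of -0.80 (adjusted p = 0.00274) for KRT7 and -0.61 (adjusted p = 3.75e-04) for KRT80. KRT81, at a log2 change of -0.98 (adjusted p = 0.00130), has close paralogs among which reads may have been split. Keratin 15 (KRT15) rose by a log2 change of 0.47 (adjusted p = 0.00332).

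Of the genes listed for the EGF receptor family, its ligands and its feedback genes, 4 of 7 tested on RPKM fell and 1 rose, with C or without it, and on reads 5 of 19 fell and 3 rose. DUSP6, a phosphatase of ERK, had 6.73, 6.54 and 6.56 RPKM in 4N-3, against 11.1, 10.4 and 11.1 RPKM in 4N-1, a log2 change of -0.68 (SE 0.07, adjusted p = 3.77e-05) and -0.67 without C. SPRY2 and SPRY4, of the sprouty family, had log2 changes of -0.68 (adjusted p = 2.36e-04) and -0.51 (adjusted p = 9.06e-04), and HBEGF, a ligand of the EGF receptor, of -0.33 (adjusted p = 0.0166). The receptor itself, EGFR, did not pass, at a log2 change of 0.26 (adjusted p = 0.132). The gene that rose on RPKM was ETV5, a transcription factor induced by the pathway, at a log2 change of 0.16 (adjusted p = 0.0498), and on reads ETV4 and NRG2 rose as well. HES1, a repressor downstream of Notch that is also induced by serum, had 6.07, 6.48 and 7.33 RPKM in 4N-3, against 22.5, 23.6 and 20.9 RPKM in 4N-1, a log2 change of -1.68 (SE 0.16, adjusted p = 1.89e-05) and -1.75 without C. It was the only gene of 4 tested on RPKM in the Notch list that passed.

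Among secreted factors linked to senescence 5 of 10 tested fell and 1 rose. IL6, a cytokine, had 0.958, 0.768 and 2.00 RPKM in 4N-3, against 3.15, 3.52 and 3.15 RPKM in 4N-1, a log2 change of -1.18 (SE 0.19, adjusted p = 7.06e-04) and -1.47 without C. VEGFA, an angiogenic factor, fell, with a log2 change of -0.83 (adjusted p = 0.00421), LIF, a cytokine of the IL6 family, at -0.71 (adjusted p = 5.01e-05), and IGFBP3 is the member that rose. Of 24 interferon-stimulated genes 4 rose (16.7%, against 10.8% of all genes tested) and 3 fell (12.5%, against 7.66%). Without C 4 rose (16.7%, against 17.5%) and 6 fell (25%, against 11.3%). OAS3, a sensor of double-stranded RNA, was at a log2 change of 0.79 (adjusted p = 0.00236), IFIT1, which binds foreign RNA, at 0.55 (adjusted p = 7.09e-04), GBP1, a GTPase, at -0.59 (adjusted p = 5.62e-05) and the antigen-presenting HLA-B at -0.55 (adjusted p = 0.0203).

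Targets of p53 fell or did not pass: 8 of 25 tested fell and 0 rose in limma, 9 and 1 at an unadjusted p below 0.05, with a median of -0.10, while without C 10 fell and 1 rose. The largest were TP53INP1 at a log2 change of -0.62 (adjusted p = 0.0234), the kinases PLK3 at -0.62 (adjusted p = 2.05e-04) and PLK2 at -0.60 (adjusted p = 0.00152), and GADD45A at -0.51 (adjusted p = 0.00715). CDKN1A (p21), the inhibitor of CDKs that p53 induces, had 22.5, 20.7 and 25.6 RPKM in 4N-3, against 31.4, 30.3 and 30.7 RPKM in 4N-1. Its libraries did not overlap, and it fell, with a log2 change of -0.42 (SE 0.09, adjusted p = 0.00754) and -0.50 without C. MDM2, the ligase that degrades p53, did not pass, at a log2 change of 0.02 (adjusted p = 0.859), with 4.55, 4.50 and 4.88 RPKM in 4N-3, against 4.48, 4.55 and 4.70 RPKM in 4N-1.

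The lists of metabolism and stress had median log2 changes between -0.08 and 0.19. Over all genes tested on RPKM 10.8% rose and 7.66% fell, or 17.5% and 11.3% without C. Of 31 lysosomal genes 9 fell and 3 rose, among them the protease cathepsin D (CTSD), at a log2 change of -0.78 (adjusted p = 0.00656), and PSAP, the precursor of the saposins, at -0.52 (adjusted p = 0.00248). Of 26 genes of cholesterol synthesis and uptake 5 rose (19.2%) and 3 fell (11.5%), and C was above A and B in 23 of the 26. Without C 3 rose (11.5%) and 6 fell (23.1%), and on reads 6 rose and 8 fell, so the balance of these few genes turned when C was left out. SREBF1, a regulator of lipid synthesis, fell, with a log2 change of -0.46 (adjusted p = 0.0421). In the unfolded protein response 1 of 22 rose and 3 fell (3 and 4 without C). Those that fell were XBP1 at a log2 change of -0.62 (adjusted p = 1.88e-04), HERPUD1 at -0.60 (adjusted p = 1.05e-04) and DNAJB9 at -0.46 (adjusted p = 2.64e-04). Of 18 heat shock genes 4 rose and 4 fell (6 and 4 without C), with the small heat shock protein HSPB7 called at a log2 change of -1.08 (adjusted p = 5.22e-05) and the chaperone HSPD1 at 0.45 (adjusted p = 0.0253). HSPA1A and HSPA1B, near-identical copies that may share reads, were at -0.61 and -0.60. Of 17 glycolysis genes GPI, an isomerase of hexose phosphates, alone passed on RPKM with C, at a log2 change of 0.25 (adjusted p = 0.0384). Without C 4 rose and 2 fell, and on reads with C 2 of 21 rose and 2 fell.

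**Figure D3:**
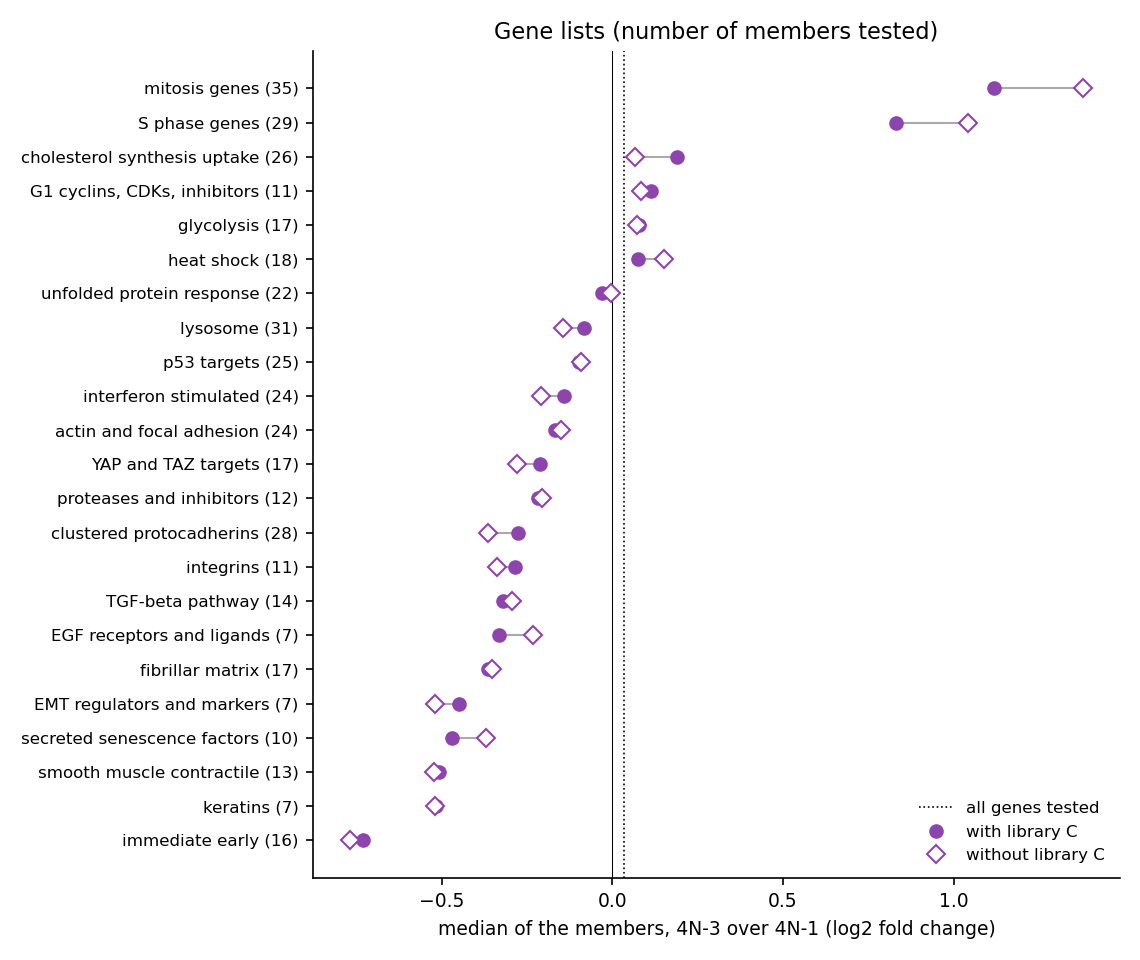
Median log2 fold change, 4N-3 over 4N-1, of the tested members of each gene list, with the number tested in parentheses; filled circles include library C, open diamonds leave it out, and the dotted line is the median of all genes tested, 0.03. The mitosis list (1.12 with C, 1.38 without) and the S phase list (0.83 and 1.04) stand to the right, and the immediate early list (-0.73 and -0.77) to the left.

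A set of genes was close to absent in one of the clones, most of them seen only on reads. Values here are reads per M. LINC01060, a long noncoding RNA (GRCh38 chromosome 4, 188400736 to 188681051), had 6.52, 6.49 and 12.3 reads per M in libraries A, B and C of 4N-3, against 0.0237, 0.0420 and 0 reads per M in those of 4N-1. Of the pair 4N-3 alone had it beyond a few reads, and C held the most. The ratio of its reads, 1053 against 3, was 381 (95% exact binomial interval 130.0 to 1851), an interval that covers counting error only. TSPAN7, a tetraspanin of the X chromosome, had 3.04, 3.17 and 3.31 reads per M in 4N-3, against 0.119, 0.0420 and 0.178 reads per M in 4N-1, with 394 reads in 4N-3 against 15 in 4N-1 and a log2 change of 4.88 (SE 0.43, adjusted p = 1.43e-06) and 4.85 without C. PHACTR1, a regulator of actin and protein phosphatase 1, had 5.65, 6.31 and 6.43 reads per M in 4N-3, against 0.332, 0.294 and 0.245 reads per M in 4N-1, a log2 change of 4.36 (SE 0.24, adjusted p = 6.58e-09) and 4.33 without C. In both genes C was on the level of A and B and not on that of 4N-1. AC012501.1, a noncoding gene on chromosome 2, had 6.97, 7.20 and 10.8 reads per M in 4N-3, against 0.688, 0.818 and 0.847 reads per M in 4N-1, a log2 change of 3.37 (SE 0.23, adjusted p = 7.26e-08) and 3.16 without C.

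Smaller rises on reads were those of CYP39A1, an oxysterol hydroxylase, with 351 reads in 4N-3 against 39 in 4N-1 and a log2 change of 3.20 (adjusted p = 4.54e-06), SLC16A9, a carrier of the monocarboxylate family, at 2.71 (adjusted p = 3.96e-07), and ADAMTS16, a matrix protease, at 2.47 (adjusted p = 3.19e-07). DYNC1I1, a dynein chain, had a log2 change of 2.21 (adjusted p = 8.96e-06) and MAT1A, which makes S-adenosylmethionine in liver, at 1.96 (adjusted p = 3.85e-06). ESM1, a proteoglycan secreted by endothelium, had 5.39, 4.72 and 1.50 reads per M in 4N-3, against 0.640, 0.588 and 0.624 reads per M in 4N-1, a log2 change of 2.42 (adjusted p = 0.00132). It was the one of these rises in which C was far below A and B. SNORD88C, a small nucleolar RNA, was called on RPKM at a log2 change of 1.66 (adjusted p = 0.0171) from 26 reads in 4N-3 against 4 in 4N-1, counts that limit its precision.

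In the other direction, RIN3, which activates RAB5 GTPases (GRCh38 chromosome 14, 92513774 to 92688994), had 0, 0 and 0 reads per M in 4N-3, against 6.14, 5.62 and 6.11 reads per M in 4N-1. It was at least 246-fold lower there, against a floor of 3 reads over the 3 libraries. GRIK5, a kainate receptor subunit, had 0.343, 0.252 and 0.540 reads per M in 4N-3, against 21.8, 21.2 and 19.3 reads per M in 4N-1, a log2 change of -5.80 (SE 0.22, adjusted p = 7.67e-11) and -6.09 without C. EXD2, a nuclease of DNA end resection, had 1.06, 1.33 and 1.17 reads per M in 4N-3, against 9.82, 9.97 and 10.3 reads per M in 4N-1, a log2 change of -3.07 (SE 0.14, adjusted p = 6.34e-10) and -3.06 without C. In all 3 genes the 3 libraries of 4N-3 were alike, and the other clones had the gene: EXD2 averaged 11.4 in 4N-2, 11.6 in 2N-3 and 11.5 in 2N-1. SEC14L6, of a family of lipid carriers, had a log2 change of -4.07 (adjusted p = 4.01e-07), ATP6V1C2, a proton pump subunit, at -3.37 (adjusted p = 5.56e-05), and the serine protease PRSS33, on RPKM, at -2.28 (adjusted p = 8.63e-06). MIR27B was called on RPKM at a log2 change of -1.40 (adjusted p = 0.0244) from 12 reads in 4N-3 against 42 in 4N-1, with C and A alike, and 2 genes without a symbol, ENSG00000199004 and ENSG00000272761, at -2.05 (adjusted p = 0.00202) and -1.31 (adjusted p = 6.56e-04). NUP210, a nucleoporin, and GPR143, a pigment cell receptor, were nearly absent from both clones, with 24 reads in 4N-3 against 6 in 4N-1 and 9 reads in 4N-3 against 5 in 4N-1.

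HOX genes, which record position along the body axis, fell or did not pass. Of 36 genes 17 were tested on reads: 9 fell, 7 of them called, and 0 rose in limma-voom, nor did any at an unadjusted p below 0.05. HOXB9 had 1.24, 1.45 and 0.798 reads per M in 4N-3, against 10.0, 10.7 and 10.3 reads per M in 4N-1, a log2 change of -3.19 (SE 0.18, adjusted p = 6.42e-09) and -2.93 without C. HOXB7 had 1.82, 2.18 and 1.46 reads per M in 4N-3, against 12.9, 13.9 and 13.2 reads per M in 4N-1, a log2 change of -2.88 (SE 0.15, adjusted p = 1.99e-09) and -2.73 without C, and HOXB8 had a log2 change of -2.98 (adjusted p = 1.12e-04). The annotated span of HOXB7 holds HOXB8 and HOXB9 whole, so they may share reads. In 4N-1 HOXB7 had 1799 reads, HOXB9 1395 and HOXB8 104. C was the lowest library of 4N-3 in HOXB9 and HOXB7. HOXC4 and HOXC5, which overlap and have the same reads in all 6 libraries, so that they cannot be told apart here, had a log2 change of -3.02 (adjusted p = 0.00657). The span of HOXC6, also called, holds HOXC8 and overlaps HOXC4 and HOXC5. The 7 called genes are therefore not 7 separate measurements. The 8 genes that did not pass included HOXB6, at a log2 change of -0.12 (adjusted p = 0.496), and HOXA5, at 0.74 (adjusted p = 0.527) from levels below 0.1 reads per M. Among the clustered protocadherins, adhesion proteins of which neurons choose a few, 4 of 28 tested on RPKM fell and 21 fell without C, which was above A and B in all 28. The gamma genes share their last exons, so these are not 28 separate measurements. On reads 5 of 50 fell and 1 rose, or 31 and 1 without C. PCDHB12, which rose, was the only one called. It had 2.19, 2.22 and 2.23 reads per M in 4N-3, against 1.26, 1.20 and 0.580 in 4N-1, a log2 change of 1.21 (SE 0.35, adjusted p = 0.0247) and 1.20 without C.

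**Figure D4:**
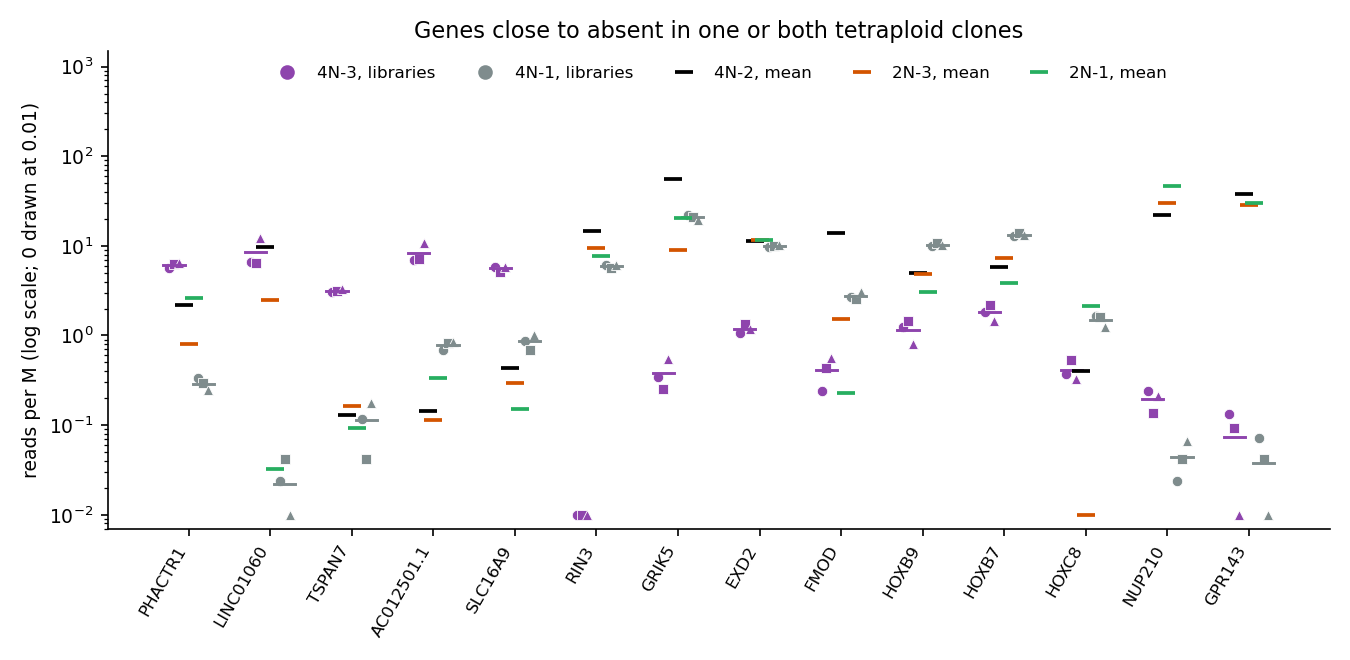
Recovered reads per M on a log scale for genes close to absent in one or both tetraploid clones; points are the libraries of 4N-3 (purple) and 4N-1 (grey) with a bar at the mean, black, orange and green bars are the means of 4N-2, 2N-3 and 2N-1, and values of 0 are drawn at 0.01. RIN3 sits at 0 in all 3 libraries of 4N-3, with 801 reads in 4N-1, and LINC01060 has 1053 reads in 4N-3 against 3 in 4N-1.

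Whether the diploid clones from the same plates differed in the same way was asked with 2N-3 over 2N-1, which shares no library with the main comparison. Between them 12 genes were called (0.124%), or 11 without library A of 2N-3 and 22 without its C. At any fold 58 rose (0.598%) and 21 fell (0.216%). Library A of 2N-3 lay 0.615 and 0.616 from B and C of its clone, which were 0.201 apart, so the spread of 2N-3 was wide. Of the 98 genes called higher in 4N-3, 70 had the same sign in 2N-3 over 2N-1, where 0 passed in limma and 5 had an unadjusted p below 0.05. Of the 37 called lower, 11 had the same sign, where 0 passed and 3 had an unadjusted p below 0.05. On recovered reads this diploid pair had 213 calls. There 255 of the 503 genes higher in 4N-3 shared the sign, and 11 of them passed in limma-voom. Of the 347 lower, 180 shared it and 16 passed. Those that passed included LINC01060 and ADAMTS16, at diploid log2 changes of 6.61 (adjusted p = 2.10e-04) and 1.78 (adjusted p = 2.52e-04). GRIK5 passed downwards, at -1.17 (adjusted p = 6.61e-06). The share of all genes tested with the same sign is not given, so these counts have no baseline. On RPKM the difference of the 2 fold changes, (4N-3 over 4N-1) minus (2N-3 over 2N-1), was called in 178 genes (1.83%). The difference passed at any fold upwards in 501 (5.16%) and downwards in 474 (4.88%). It passed in 72 of the 98 and 32 of the 37, in 93 and 33 without C of 4N-3, and in 94 and 32 without A of 2N-3. These genes were chosen by the change of 4N-3 over 4N-1, which is itself part of the difference tested. The choice favours passing, so these counts are no separate support. The 178 calls became 323 without C of 4N-3, 117 and 111 without its A and B, 170 without A of 2N-3, and 269 without C of 2N-3. Without A of 2N-3 the difference passed at any fold upwards in 1132 genes and downwards in 923.

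By list, the difference passed upwards in 32 of 35 mitosis genes and 14 of 29 S phase genes, and downwards in 11 of 16 immediate early genes and 7 of 17 YAP and TAZ targets. MKI67 had a log2 change of -0.32 in 2N-3 over 2N-1, and the difference was 1.76 (SE 0.37, adjusted p = 0.00938). Without library A of 2N-3 these were 0.05 and 1.39. EGR1 had a log2 change of 0.75 (adjusted p = 0.195) there, with a difference of -4.63 (SE 0.34, adjusted p = 2.23e-06). CTGF rose by a log2 change of 0.73 (adjusted p = 0.00124) in 2N-3, and its difference was -2.13 (SE 0.14, adjusted p = 8.81e-07). In EGR1 and CTGF, and in MKI67 with all libraries, the 2 changes were opposite in sign, which adds to the difference. In size the change between the tetraploid clones was the larger in these genes, but which pair was further apart was not tested. HOXC6 averaged 0.516 reads per M in 4N-3 and 2.04 in 4N-1, while it had 0 reads in all 3 libraries of 2N-3, against 2.62 reads per M in 2N-1. Its annotated span holds HOXC8 and overlaps HOXC4 and HOXC5, so these reads cannot be assigned to HOXC6 alone.

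**Figure D5:**
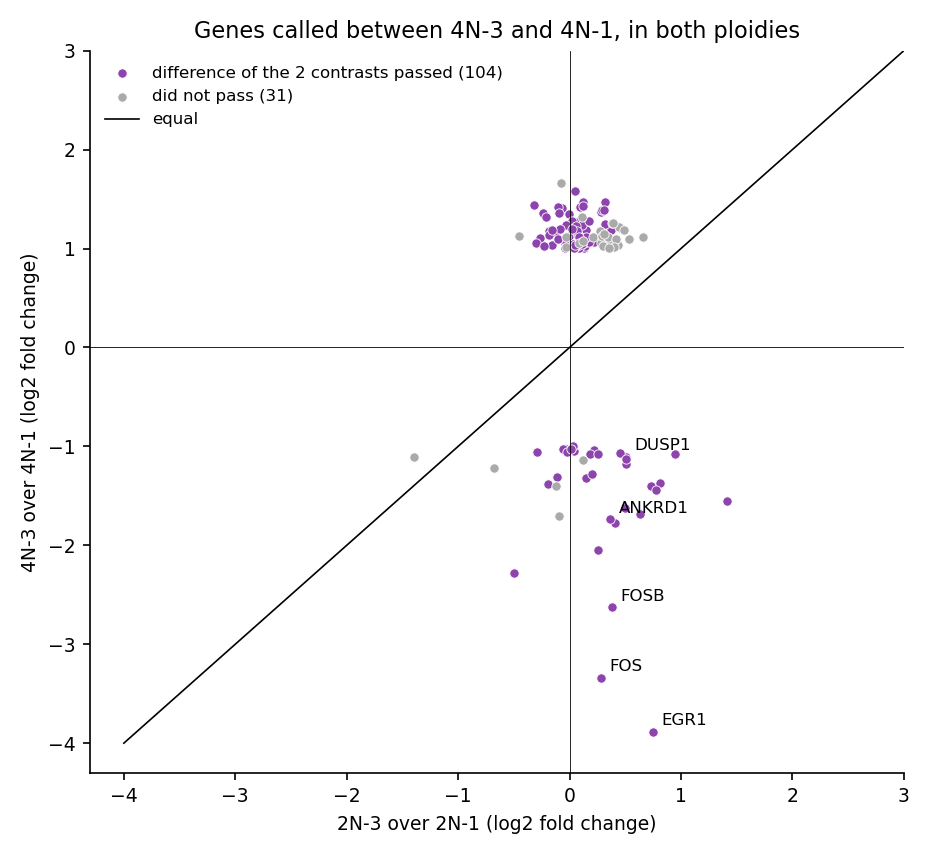
The 135 genes called between 4N-3 and 4N-1 on RPKM, with the log2 fold change of 2N-3 over 2N-1 on the x axis and of 4N-3 over 4N-1 on the y axis; purple points are the 104 genes in which the difference of the 2 passed and grey points the 31 in which it did not. Most points lie close to 0 on the x axis, and EGR1, FOS and FOSB lie lowest. The choice of these genes favours passing, since the change on the y axis is part of the difference.

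Chromosome medians lay close together in the clones. Over genes with enough reads, the median log2 ratio of each chromosome lay within 0.1 of 0 in all 6 libraries, taken against 4N-1. On chromosomes 5, 6, 14, 15, 20 and X the libraries of the clones did not overlap, with medians between -0.054 and 0.056. In windows of 40 neighbouring genes, the lowest was on chromosome 5 from PCDHA8 to GNPDA1 (140841187 to 142013041, GRCh38), at -0.45, -0.48 and -0.10 in libraries A, B and C of 4N-3, which holds the protocadherin clusters. The highest was on chromosome 19 from MIDN to GNA11 (1248553 to 3124004), at 0.26, 0.28 and 0.04. In both windows C was near the level of 4N-1.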

How the data were processed

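Polyadenylated RNA of 6 RPE1 clones, 3 libraries each, was sequenced from a stranded TruSeq kit per the labels' protocols. CASAVA 1.8.2, TopHat2, edgeR and hg19 appear in the submitters' processing notes, and how the strand was used in counting is not given in the sources used here. The deposited values are RPKM for 57773 genes. All values above 0 (100.0%) came out as whole reads within 0.01 reads, so reads were recovered, with the implied divisors as library sizes. For 19218 of 26298 genes with over 50 reads the implied length was the genomic span, introns included, so RPKM is low for genes with long introns. Symbols and positions are from GENCODE 29 (GRCh38), which matched 52338 genes. Antisense and overlapping genes may share reads.

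Genes with 1 RPKM or more in 3 libraries (9704) were fitted as log2(RPKM + 0.5) with limma 3.58.1 in R 4.3.3, with 6 clone means, a trended prior and 1 spread from all 18 libraries. The same contrasts were fitted with limma-voom on recovered reads for genes with 10 or more reads in 3 libraries (23532). Tests were two-sided, with Benjamini-Hochberg adjustment over all genes tested. Calls needed an adjusted p under 0.05 and at least a 2-fold difference. Contrasts were 4N-3 over 4N-1 with and without library C, 2N-3 over 2N-1, the difference of both, and 4N-2 over either tetraploid clone. The test was checked on simulated data. Ratios of reads carry 95% exact binomial intervals, which cover counting error only.

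The comparison, the 28 gene lists and the rules were chosen with earlier results of these data known. Named genes were the 12 largest called rises and falls on RPKM without overlap and at 2 RPKM or more, 10 per direction on reads at 100 reads or more, up to 4 per list, and a few always given. Alternatives covered pseudocounts, minimums, centring, a fit of the 6 libraries, a replicate block and leaving out each library. Those for the other contrasts and for the fit without C were chosen after seeing the data. Promoters came from RefSeq (GRCh38.p14). Genes such as COL1A2, ETV4, ETV5, NRG2, CCNE2, HOXA5, HOXC6 and PCDHB12 were named after their values were seen.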

Additional observations from a re-analysis of the deposited data

Results flagged for a closer look

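The fold changes of 4N-3 over 4N-1 and of 2N-3 over 2N-1 differed, by a test of the difference itself, in 92 genes upwards and 86 downwards (limma on RPKM, adjusted p below 0.05 and 2-fold or more), and these are examples among the genes named. On RPKM the log2 difference was 1.76 for MKI67, 1.53 for KIF20A and 1.53 for TOP2A, all higher in the tetraploid comparison. Without library A of 2N-3 it was 1.39 for MKI67. It was -4.63 for EGR1, -3.62 for FOS and -3.01 for FOSB, all lower there. On recovered reads it was 6.02 for PHACTR1, 4.82 for AC012501.1 and 3.84 for TSPAN7, and -9.20 for RIN3, -5.48 for FMOD and -4.63 for GRIK5. The value of RIN3 is no size, since 4N-3 had 0 reads of it. Library A of 2N-3 stands apart and widens the spread behind these tests. Groups of 3 libraries are too small to test for outlying samples.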

How the results depend on the processing

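Changed choices moved the counts of called genes more than the genes named. On RPKM the 98 higher and 37 lower became 176 and 60 with a pseudocount of 0.1, 47 and 24 with a pseudocount of 1, and 209 and 71 on recovered reads of the same genes. Leaving out 1 library gave 51 to 192 higher and 25 to 70 lower. Without C of 4N-3, the 192 higher became 124 and the 70 lower 45 with a pseudocount of 1, and the 192 became 127 with a minimum of 2 RPKM. On reads, the 347 lower became 163 with a minimum of 100 reads, and leaving out 1 library gave 327 to 756 higher and 209 to 592 lower. A pseudocount of 1 left 492 genes between 4N-2 and 4N-1 and 231 between 4N-2 and 4N-3. For 2N-3 against 2N-1 the 12 genes became 24 and 6 with pseudocounts of 0.1 and 1, and 10 to 22 were called without 1 library. The 178 genes of the difference became 300 and 107 with those pseudocounts and 111 to 323 without 1 library. The cause of these moves was not tested. Centring each library on its median left 83 higher and 46 lower. Letters do not pair the libraries (correlations of -0.014, -0.0019 and -0.069 between equal letters), and with a replicate block 97 and 36 were called on RPKM and 481 and 326 on reads. Among the genes ranked by size, MIR27B lost its call with no minimum, with the 6 libraries fitted alone and without A or B of 4N-1 or B of 4N-3, and SNORD88C without A or B of either clone. The genes that changed sign had not passed. MDM2 was at -0.015 after centring, and leaving out 1 library gave -0.013 to 0.039 on RPKM and -0.014 to 0.043 on reads. CCND1 ranged in this way from -0.28 to 0.029 on RPKM and from -0.29 to 0.029 on reads, and GPR143 from -0.25 to 1.74 on reads. Depth limits genes of a few reads per library, such as GPR143, NUP210 and SNORD88C.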

Other observations

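Several members of the lists missed the RPKM minimum and could be read only in recovered reads. They were singled out after their values were seen. Among immediate early genes, ATF3, a stress-induced transcription factor, had 1.03, 1.56 and 1.13 reads per M in 4N-3, against 7.19, 6.46 and 6.82 reads per M in 4N-1, a log2 change of -2.46 (SE 0.16, adjusted p = 4.06e-08) and -2.40 without C. EGR3, a relative of EGR1, had 0.422, 0.528 and 0.446 reads per M in 4N-3, against 1.95, 1.55 and 1.36 reads per M in 4N-1, a log2 change of -1.75 (SE 0.27, adjusted p = 3.51e-04) and -1.72 without C. In both genes library C lay with A and B. NR4A1, an orphan nuclear receptor, was closer between the clones, at a log2 change of -0.48 (adjusted p = 0.00638). Of the smooth muscle genes, LMOD1, which nucleates actin filaments, had 8.85, 8.81 and 15.0 reads per M in 4N-3, against 27.3, 28.4 and 29.5 reads per M in 4N-1, a log2 change of -1.42 (SE 0.19, adjusted p = 9.11e-05) and -1.68 without C. Claudin 1 (CLDN1), a protein of tight junctions, had 1.82, 2.00 and 1.24 reads per M in 4N-3, against 3.65, 3.88 and 4.21 reads per M in 4N-1, a log2 change of -1.24 (SE 0.19, adjusted p = 3.38e-04) and -1.03 without C, with C the lowest library of 4N-3. Licensing and elongation factors of replication rose with the S phase genes, ORC1 at a log2 change of 1.20 (adjusted p = 0.00444) and CDC45 at 1.09 (adjusted p = 0.0140), and in both C was near 4N-1.

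Secreted factors read this way went in both directions. IGFBP5, a binding protein of insulin-like growth factors, had 2.80, 2.55 and 4.02 reads per M in 4N-3, against 13.0, 12.9 and 13.0 reads per M in 4N-1, a log2 change of -2.08 (SE 0.20, adjusted p = 4.54e-06) and -2.28 without C. The chemokine CXCL8 and the decoy receptor TNFRSF11B had log2 changes of -1.21 (adjusted p = 0.00459) and -1.12 (adjusted p = 0.0155). IL1A, an alarm cytokine, had 0.396, 0.367 and 0.634 reads per M in 4N-3, against 0.119, 0.0420 and 0.0446 reads per M in 4N-1, a log2 change of 2.70 (SE 0.49, adjusted p = 0.00116) and 2.45 without C, all at low levels. SERPINB2, an inhibitor of plasminogen activators, rose by a log2 change of 1.15 (adjusted p = 0.00675). CCND2 fell in 4N-3 relative to 4N-1 but had a log2 change of 2.71 (adjusted p = 0.00212) in 2N-3 over 2N-1. The diploid change is between low levels, 0.492 reads per M in 2N-3 and 0.0654 in 2N-1. The tetraploid clones averaged 10.9 in 4N-3 and 18.8 in 4N-1. RPE65 and TYRP1, at or below 0.567 reads per M in every library of the pair, were lower in 4N-3, at a log2 change of -2.47 (adjusted p = 7.95e-04) and -3.02 (adjusted p = 0.0129).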
